A study of Homo sapiens with 9 samples.

Results

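The second library of each group was set against the other libraries of the same group in RNA sequencing of ACHN, a long-established line of human kidney cancer cells. These were 3 of the 9 libraries of the series (KO#1 replicate 2, KO#2 replicate 2 and sgControl replicate 2), and they were set against 5 others. They were chosen from measured values: proliferation genes, MKI67 among them, ran high in the library that came second in sample order in every group. The difference between the second and the other libraries is therefore given as a description, with no test, and nothing is supported with it. In KO#1 and KO#2 cells ELOVL5, which encodes an elongase of polyunsaturated fatty acids, had been targeted by CRISPR/Cas9 with 1 of 2 independent guides, and sgControl cells carried a control guide. Each group had 3 libraries. The labels give no treatment, time or replicate number, do not say whether the replicates were separate cultures, and do not say whether the knockout cells were single clones or pools. Replicate numbers here are places in sample order, and the labels tie no library of one group to a library of another. A culture, harvest or library batch shared by the second libraries could not be told apart from their proliferation. Any p-value below measures only the spread between these libraries, which may be technical.

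Cells that divide pass through a DNA synthesis phase, in which the genome is copied and histones are made in bulk, and then through mitosis, in which kinesins, kinetochore proteins and condensins sort the chromosomes. The genes of these phases are switched on in waves. E2F factors act at promoters of replication genes, and the MuvB complex with B-MYB and FOXM1 acts at promoters of mitotic genes, often through an element called CHR with CCAAT boxes near it. In cells that leave the cycle the DREAM complex, which shares the MuvB core, holds both sets low. Genes of the cycle are therefore commonly read as a sign of how many cells of a culture are dividing. In bulk RNA, more dividing cells and more of a message in each cell cannot be told apart.

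The promoters of 4 mitotic genes from among those that stood highest in the second libraries are shown to let the CHR and CCAAT elements be seen in place. They were picked because they hold both elements before the annotated start, so they do not stand for the highest genes in general. They are from RefSeq on build GRCh38.p14, read 5′ to 3′ up to the base before the annotated start. Capitals mark TTTGAA or its reverse complement TTCAAA (CHR) and CCAAT or its reverse complement ATTGG. DLGAP5 and HMMR encode spindle proteins, KIF11 the kinesin that pushes the spindle poles apart, and ASPM a protein of the spindle pole.
DLGAP5, chr14:55191586-55191738, minus strand: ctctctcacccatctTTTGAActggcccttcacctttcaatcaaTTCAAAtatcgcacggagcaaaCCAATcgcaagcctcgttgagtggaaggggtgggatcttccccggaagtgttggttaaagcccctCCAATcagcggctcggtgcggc
HMMR, chr5:163460440-163460631, plus strand: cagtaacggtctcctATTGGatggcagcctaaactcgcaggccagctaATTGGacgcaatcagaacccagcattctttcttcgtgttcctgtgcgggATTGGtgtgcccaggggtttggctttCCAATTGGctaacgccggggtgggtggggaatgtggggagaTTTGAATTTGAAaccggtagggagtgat
KIF11, chr10:92593062-92593129, plus strand: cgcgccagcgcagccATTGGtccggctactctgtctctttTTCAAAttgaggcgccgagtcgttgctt
ASPM, chr1:197146670-197146818, minus strand: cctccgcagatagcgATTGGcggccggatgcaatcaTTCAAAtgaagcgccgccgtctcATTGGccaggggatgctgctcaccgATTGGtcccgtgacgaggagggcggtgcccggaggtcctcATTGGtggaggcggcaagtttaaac
The DLGAP5 and HMMR stretches each hold the CHR letters at 2 places, and those of KIF11 and ASPM at 1 place.

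The table held 57773 features. What it gives is a signal, made by the authors through quantile normalization of read counts per gene, so that every library has the same total of 8625043.6 and the raw depth is unknown. The value that fell to a feature with 10 reads could be read back from ties. It was 8.22 in the second KO#1 library against 7.67 and 6.67 in the others, and 12.6 in the second KO#2 library against 7.56 in the other compared one. In sgControl it was 7.89 in the second library against 12.0 and 12.2 in the others. By this value the second library was the deepest of its group in sgControl but not in KO#1 or KO#2. The second libraries were thus not the deeper ones as a set, but depth was uneven within groups. KO#2 replicate 1 stood apart, with 55.7 for that value and correlations across genes of 0.681 to 0.745 with the other libraries, where those correlated at 0.882 to 0.978 among themselves. It was left out, which leaves KO#2 with 1 second and 1 other library. The second KO#2 library correlated at 0.961 with the second KO#1 library and at 0.935 with KO#2 replicate 3. The second sgControl library correlated at 0.959 and 0.958 with its own group. With the second KO#1 and KO#2 libraries it correlated at 0.928 and 0.917. Genes with a mean signal of at least 10 over the 8 libraries, 12852 in all, were compared on the log2(signal + 1) scale, which understates the change of low genes. The difference is second minus other, adjusted for group, and its standard error (SE) has 4 residual degrees of freedom. Signal is not scaled to gene length, so levels are compared within a gene only.

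ELOVL5, the targeted gene, had a signal of 1345 in the second KO#1 library, against 805 and 1016 in the others of KO#1. It had 1805 in the second KO#2 library, against 910 in the other compared one and 434 in the one left out. In sgControl it had 2713 in the second library, against 1999 and 2063 in the others. Every KO#1 and KO#2 library was below every sgControl library, as the labels have it, and within each group the second library was the highest. The second-library difference of ELOVL5 was 0.63 (SE 0.14), which is smaller than the distance of either guide from sgControl given further on. Messenger RNA of the whole gene does not show whether the protein was lost.

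MKI67, the gene of the proliferation marker Ki-67, had a signal of 11438 in the second KO#1 library, against 1447 and 1790 in the other KO#1 libraries. In KO#2 it had 3303 in the second library, against 1107 in the other compared library and 593 in the library left out. In sgControl it had 15284 in the second library, against 3651 and 2558 in the others. The second library was thus the highest of its group in every group, and the second KO#2 library still lay below one of the other sgControl libraries. The group-adjusted difference was 2.30 (log2, SE 0.29), a 4.93-fold higher signal, with 2.83 in KO#1, 1.58 in KO#2 and 2.32 in sgControl.

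**Figure D1:**
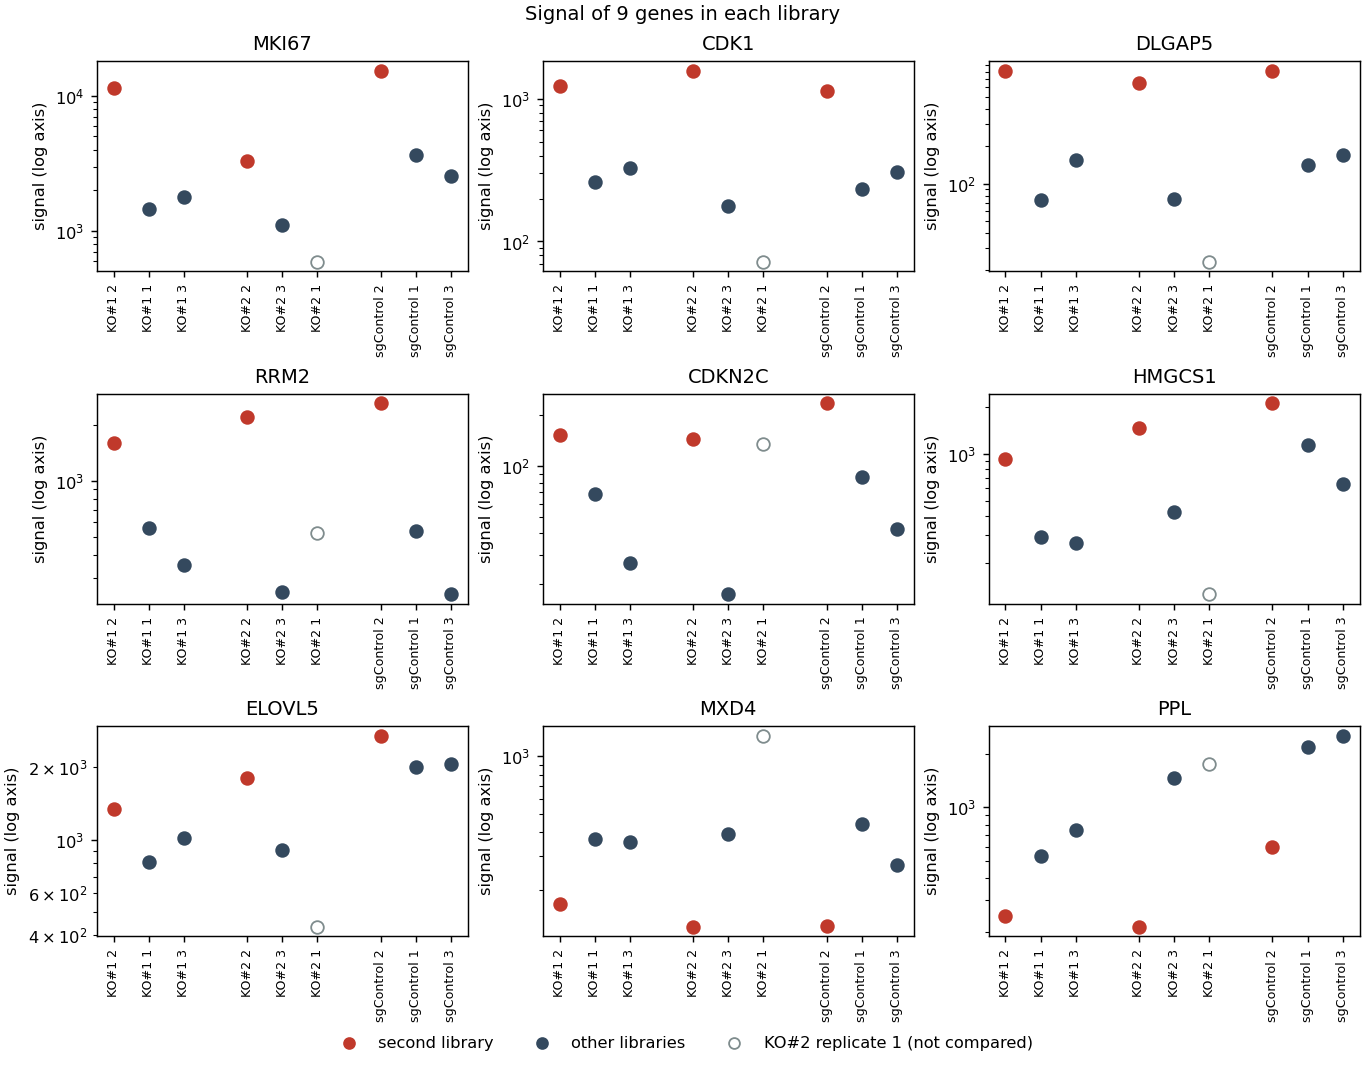
Signal (log axis) of 9 genes in each library, with the second library of KO#1, KO#2 and sgControl (red) left of the others of its group (dark) and KO#2 replicate 1, which was not compared, as an open circle. MKI67, CDK1, DLGAP5, RRM2, CDKN2C, HMGCS1 and ELOVL5 are highest in the red point of each group, and MXD4 and PPL are lowest there.

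Across all tested genes, 2002 (15.6%) were highest in the second library of all 3 groups and 2229 (17.3%) were lowest there. With a difference of at least 1 (log2) as well, 470 (3.66%) were highest and 210 (1.63%) were lowest. Since the libraries were chosen on genes of this contrast, nothing is read from these counts. The same holds for the list counts below, which stand beside 15.6% highest and 17.3% lowest among all tested genes. Of the 470, 179 (38.1%) belonged to the lists of mitosis, replication, repair and histone genes, and 277 belonged to none of the 25 lists described here. None of the 210 lowest genes was in those 4 lists. The differences within the 3 groups rest on separate libraries, but the second library was chosen in each group because proliferation genes ran high. Some likeness between the groups was thus fixed by the choice. Across genes, which are not independent replicates, they correlated at a Pearson r of 0.53 between KO#1 and KO#2, 0.55 between KO#1 and sgControl and 0.46 between KO#2 and sgControl. Without the 4 cell cycle lists r was 0.46, 0.50 and 0.40 for the same pairs. Genes outside these lists were also high in the second libraries, so leaving the lists out does not undo the choice.

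**Figure D2:**
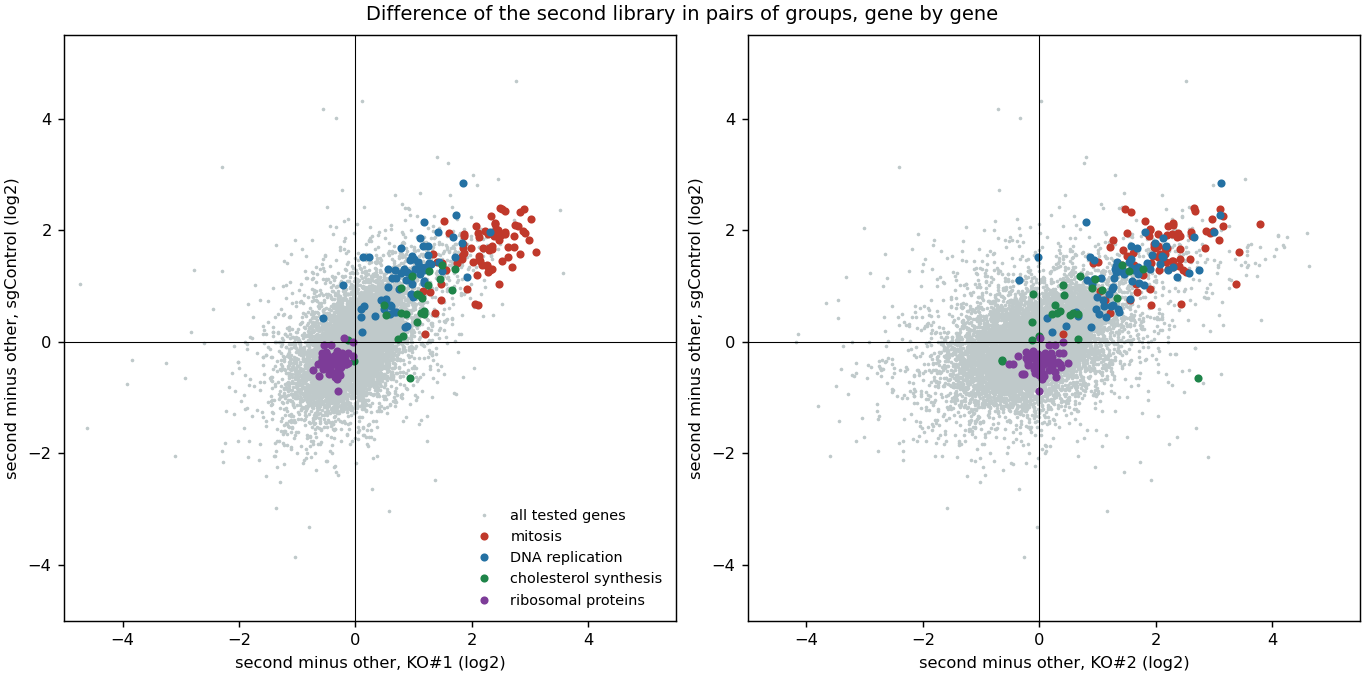
Second minus other libraries (log2) for each tested gene in KO#1 (left panel, horizontal) or KO#2 (right panel, horizontal) and in sgControl (vertical), with members of 4 lists coloured. Mitosis and DNA replication genes lie at the upper right of the grey cloud of 12852 genes in both panels, and nearly all ribosomal protein genes lie below 0 in sgControl.

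Genes of mitosis stood highest. Of 77 list members, 76 were highest in the second library of all 3 groups, 75 of them by at least 1, and the median difference was 2.03, against -0.03 over all tested genes. By group the median was 2.27 in KO#1, 2.16 in KO#2 and 1.68 in sgControl. The exception was CDC25B, a phosphatase that activates cyclin-dependent kinases, with a difference of 0.60: its 912 in the second sgControl library lay between 718 and 952 in the others. BUB3, a checkpoint protein, was highest in all groups by 0.76. Within groups, 91.6% of the summed squared deviation of the mitosis genes lay along the second-library term, where over all genes it was 49.7%.

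CDK1, the kinase that drives entry into mitosis, had 1232 in the second KO#1 library, against 260 and 329 in the others. It had 1574 in the second KO#2 library, against 177 in the other one. It had 1133 in the second sgControl library, against 234 and 307 in the others. The 3 second libraries lay close together and all others far below them, with no overlap in any group, and the difference was 2.37 (SE 0.27). DLGAP5, whose promoter is shown above, had 807 in the second KO#1 library, against 74.1 and 155 in the others. It had 651 in the second KO#2 library, against 74.4 in the other, and 815 in the second sgControl library, against 142 and 170 in the others. This was the widest difference of the list, at 2.77 (SE 0.32), or 6.82-fold. KIF11 had 1514 in the second library against 249 and 354 in the others of KO#1, 1189 in the second library against 227 in the other of KO#2 and 1849 in the second library against 485 and 468 in the others of sgControl. Its differences were 2.35 in KO#1, 2.38 in KO#2 and 1.95 in sgControl, with no overlap within a group.

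Of the 15 genes named as higher, by the smallest of their 5 gaps between a second library and another library of its group, all had a smallest gap of 1.81 or more and differences of 2.10 to 2.92. ESCO2, an acetyltransferase that ties sister chromatids together, led with 2.92 (SE 0.32). It had 474 in the second KO#1 library, against 88.9 and 84.1 in the others. It had 797 in the second KO#2 library, against 67.9 in the other, and 466 in the second sgControl library, against 83.6 and 43.6 in the others. ANLN, an actin-binding scaffold of the cleavage furrow, had 8802 in the second library against 1337 and 1864 in the others of KO#1, 5877 in the second library against 929 in the other of KO#2 and 9073 in the second library against 1737 and 1704 in the others of sgControl. Its differences of 2.48, 2.66 and 2.40 gave one of the smaller errors (2.50, SE 0.14). The other 13 were the condensin subunits NCAPG (2.53) and NCAPH (2.18), the cyclin gene CCNA2 (2.37), CDK1 and KIF11, the spindle kinase AURKA (2.26), the protein phosphatase partner CDCA2 (2.14), the midbody protein gene SHCBP1 (2.35), ASPM (2.28), FAM83D (2.15), HMMR (2.39), the kinesin of the midzone KIF23 (2.10) and DLGAP5. ESCO2, SHCBP1 and FAM83D were in none of the lists. In KO#2 replicate 1, which was not compared, HMMR was at 3.44 and CDK1 at 71.9, below every other library.

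Genes of DNA replication were also higher in the second libraries, but by less. Of 67 members, 60 were highest in all 3 groups, 40 of them by at least 1, with a median of 1.24. RRM2, the ribonucleotide reductase subunit that makes deoxynucleotides, had 1604 in the second KO#1 library, against 554 and 354 in the others. It had 2198 in the second KO#2 library, against 252 in the other, and 2620 in the second sgControl library, against 536 and 245 in the others. No library of the others reached a second library, and the difference was 2.56 (SE 0.44). GINS1, a subunit of the replicative helicase, differed by 2.02, the repressor gene E2F8 by 2.30 and the thymidine kinase gene TK1 by 1.77. Genes that act in licensing of origins, which takes place before the DNA synthesis phase, had smaller differences. Among the helicase genes MCM2 to MCM7 they were 0.47 (MCM5) to 1.24 (MCM4), and CDT1, the licensing factor, had 0.55. CCNE1, the cyclin of the start of DNA synthesis, had 92.6 in the second KO#1 library, against 181 and 102 in the others, 75.2 in the second KO#2 library, against 68.7 in the other, and 90.4 in the second sgControl library, against 60.6 and 74.3 in the others. The groups went different ways for CCNE1, and its difference was -0.01 (SE 0.31). The others of the list that were not highest in all groups were CCNE2 (0.79), DNMT1 (0.65), E2F7 (0.59), DUT (0.52), SLBP (0.51) and POLD2 (0.16).

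Genes of homologous recombination, Fanconi anaemia and mismatch repair had a median difference of 1.50, and 31 of 33 were highest in all 3 groups. EXO1, an exonuclease of DNA end resection, had 505 in the second KO#1 library, against 232 and 171 in the others. It had 625 in the second KO#2 library, against 64.8 in the other, and 490 in the second sgControl library, against 144 and 91.8 in the others, for a difference of 2.13 (SE 0.43). RAD51AP1 (2.18), POLQ (2.05) and BLM (2.04) were close to it. PALB2, the partner of BRCA2, was at -0.02, and the kinase gene ATR at 0.46 was not highest in every group.

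Replication-dependent histone genes had a median difference of 1.96, and 43 of 47 were highest in all 3 groups. By group the median was 1.83 in KO#1, 3.26 in KO#2 and 1.37 in sgControl. The KO#2 value rests on 1 library each way. HIST1H1D, a linker histone gene, had 2535 in the second KO#1 library, against 263 and 687 in the others. It had 11151 in the second KO#2 library, against 647 in the other, and 2558 in the second sgControl library, against 970 and 487 in the others. The second KO#2 library stood above all other compared libraries for HIST1H1D, and the difference was 2.74 (SE 0.63). The KO#2 library that was left out had 9749, although its MKI67 was the lowest of all. The median log2 level of the list was 11.6 in the second KO#2 library, 9.84 in that of KO#1 and 9.72 in that of sgControl, and it was 11.9 in KO#2 replicate 1. Histone genes are near-identical copies whose messages lack a poly(A) tail, so that read sharing between copies and the way the RNA was selected bear on these values, and their part was not tested.

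**Figure D3:**
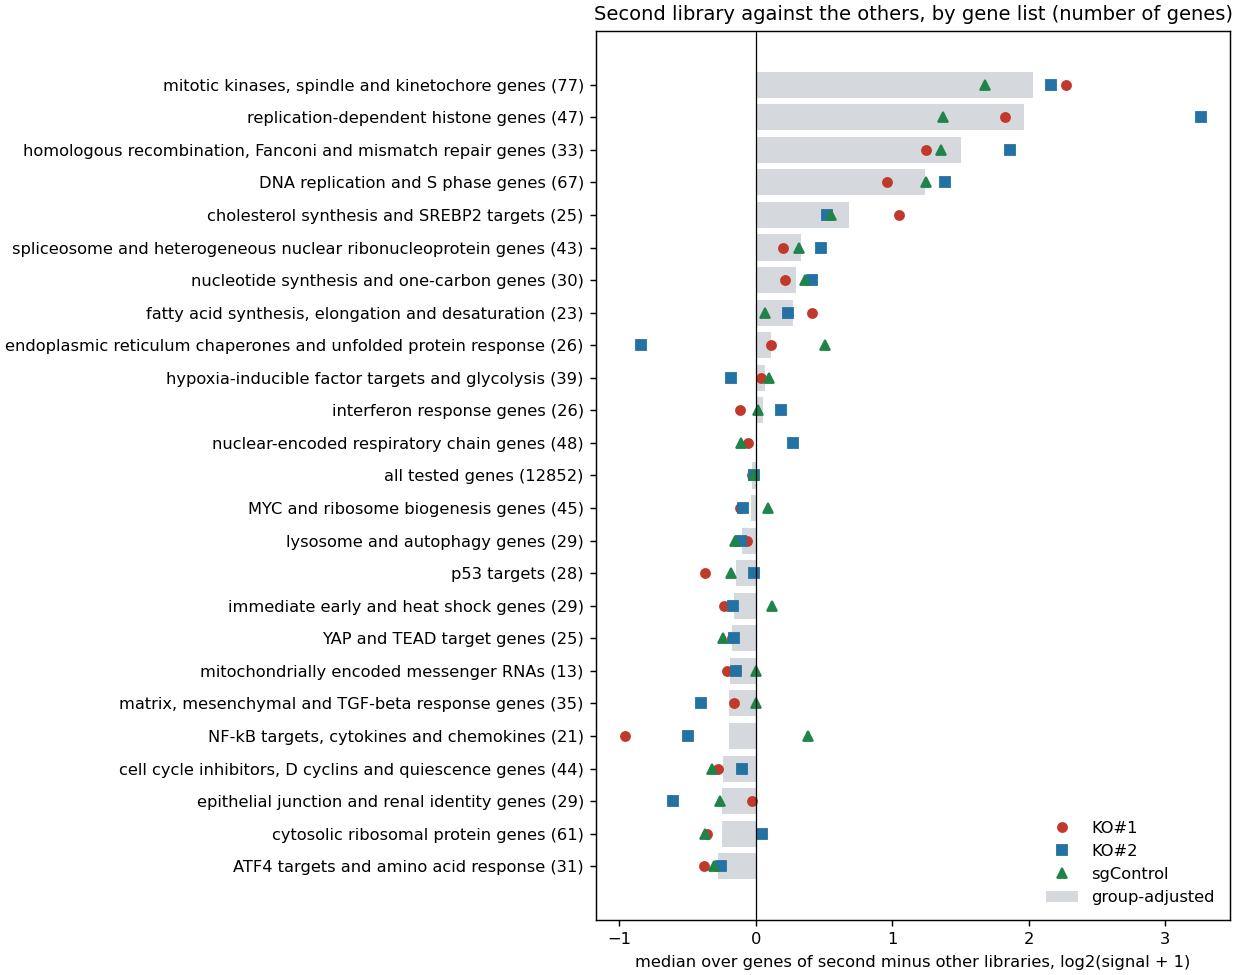
Median over list members of the difference between second and other libraries (log2), as a grey bar for the group-adjusted value and as a point for each group, for the lists with at least 5 tested members (their number in brackets) and all tested genes. The 4 cell cycle lists at the top have medians of 1.24 to 2.03, cholesterol synthesis follows at 0.68, and all tested genes lie at -0.03.

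Inhibitors of the cycle lay on both sides. The list of cell cycle inhibitors, D cyclins and quiescence genes had 44 members, with a median of -0.24. In the second libraries of all groups 6 were highest (13.6%) and 14 lowest (31.8%), against 15.6% and 17.3% of all tested genes. CDKN2C, which encodes the CDK4 and CDK6 inhibitor p18, had 152 in the second KO#1 library, against 68.6 and 26.9 in the others. It had 144 in the second KO#2 library, against 17.4 in the other, and 237 in the second sgControl library, against 85.9 and 42.3 in the others. This inhibitor gene thus ran with the mitotic genes, by 2.18 (SE 0.50). LIN54 (1.23) and LIN52 (0.64), of the MuvB core, CDKN2D (0.71) and RB1 (0.66) were also highest. CDKN1C, the gene of the inhibitor p57, went the other way, with 14.0 in the second library against 22.0 and 59.9 in the others of KO#1, 22.9 in the second library against 57.0 in the other of KO#2 and 11.8 in the second library against 36.9 and 49.0 in the others of sgControl. Its difference was -1.47 (SE 0.40). CCND2, a D cyclin gene, was lowest in the second libraries at -0.96 and the p21 gene CDKN1A at -0.47. The p27 gene CDKN1B (0.10) and CCND1 (-0.06) lay on different sides of 0 from group to group.

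MXD4, which encodes a partner of MAX that opposes MYC, had 169 in the second KO#1 library, against 369 and 355 in the others. It had 128 in the second KO#2 library, against 394 in the other, and 130 in the second sgControl library, against 445 and 269 in the others. The second libraries were the lowest in every group, with a difference of -1.35 (SE 0.22). MYC itself was lower there too, at -0.79 (SE 0.21), with 1987 in the second library against 2301 and 3698 in the others of KO#1, 2680 in the second library against 4914 in the other of KO#2 and 1483 in the second library against 3071 and 2698 in the others of sgControl. The list of MYC and ribosome biogenesis genes had 3 of 45 highest and 6 lowest, with a median of -0.03, the same as over all genes. Cytosolic ribosomal protein genes had 0 of 61 highest and 19 lowest (31.1%), against 15.6% and 17.3% of all tested genes. Their median was -0.25. That median was -0.36 in KO#1, 0.05 in KO#2 and -0.37 in sgControl, so KO#2 lay on the other side of 0.

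Among the 15 genes named as lower, differences were -1.96 to -0.96. PPL, which encodes periplakin, a linker of cell junctions to filaments, had 246 in the second KO#1 library, against 532 and 749 in the others. It had 213 in the second KO#2 library, against 1458 in the other, and 602 in the second sgControl library, against 2184 and 2527 in the others. The second sgControl library lay within the span of the other KO#1 libraries, but in each group the second was the lowest, with a difference of -1.96 (SE 0.31). SQSTM1, which encodes the autophagy receptor p62, had 3841 in the second library against 7759 and 6860 in the others of KO#1, 3698 in the second library against 8044 in the other of KO#2 and 2610 in the second library against 4733 and 6332 in the others of sgControl, a difference of -1.03 (SE 0.13). HMOX1, the haem-degrading enzyme gene, was at -1.43, and TRIM16, of a ubiquitin ligase, at -0.96. CCNI, an atypical cyclin gene, had 1470 in the second library against 2938 and 3254 in the others of KO#1, 1839 in the second library against 3469 in the other of KO#2 and 1635 in the second library against 3317 and 3797 in the others of sgControl. The CCNI difference of -1.05 had a small error (SE 0.08). The rest were IFT140 (-1.38), a part of the transport system of cilia, HOMER2 (-1.29), the carnitine acetyltransferase gene CRAT (-1.08), the arginine synthesis gene ASS1 (-1.04), the NF-kB cofactor gene BCL3 (-1.35), CALCOCO1 (-1.16), TCEA2 (-1.18), GLTSCR2 (-0.96), MXD4 and the long noncoding LINC00963 (-1.21). Of the 29 lysosome and autophagy genes, 10 were lowest in all groups (34.5%) and 4 highest (13.8%), with a median of -0.10. Of all tested genes 17.3% were lowest and 15.6% highest.

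Cholesterol synthesis genes were the metabolic list with the widest difference, with 17 of 25 highest in all 3 groups, 1 lowest and a median of 0.68. HMGCS1, which makes the precursor of mevalonate, had 918 in the second KO#1 library, against 292 and 267 in the others. It had 1464 in the second KO#2 library, against 424 in the other, and 2109 in the second sgControl library, against 1132 and 643 in the others. The difference was 1.59 (SE 0.24), with no overlap within any group, while the second KO#1 library lay below an sgControl library of the others. ACAT2 (1.43), EBP (1.34), INSIG1 (1.23) and IDI1 (1.20) were likewise highest. TM7SF2, a sterol reductase gene, was the lowest member at -0.50 (SE 0.19), and SREBF2, the gene of the factor that drives the pathway, was at -0.31. Fatty acid synthesis, elongation and desaturation genes had 8 of 23 highest (34.8%) and 1 lowest (4.35%), against 15.6% and 17.3% of all tested genes. Their median was 0.28. The 8 included ELOVL6 (0.87), ELOVL2 (0.83), ELOVL7 (0.68) and ELOVL5, and the desaturase genes were divided, with FADS2 at 0.29, FADS1 at 0.08 and FADS3 lowest at -0.57.

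Nucleotide and one-carbon genes had 15 of 30 highest and 3 lowest, with a median of 0.30. The deoxynucleotide genes led, with RRM1 at 1.55 and TYMS at 1.31, while IMPDH2, of guanine nucleotide synthesis, was lowest at -0.72. Of 43 spliceosome and heterogeneous nuclear ribonucleoprotein genes, 22 were highest and 1, HNRNPC (-0.31), was lowest, with a median of 0.33. HNRNPA2B1, which binds nascent RNA, had 10592 in the second library against 5900 and 5216 in the others of KO#1, 10278 in the second library against 4459 in the other of KO#2 and 8294 in the second library against 3724 and 4484 in the others of sgControl, a difference of 1.04 (SE 0.10). In the list of 39 hypoxia targets and glycolysis genes, 10 were highest (25.6%) and 4 lowest (10.3%). Of all tested genes 15.6% were highest and 17.3% lowest. The hypoxia target ADM had the widest difference of the list, at 1.09, and was highest in all 3 groups. The glycolytic enzyme genes LDHA (0.65), PGAM1 (0.65) and GAPDH (0.49) were also among the highest. The hypoxia targets NDRG1 (-0.76) and VEGFA (-0.59) were among the lowest, so hypoxia targets lay on both sides.

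For the stress and signalling lists the counts stand against 15.6% highest and 17.3% lowest among all tested genes, and nothing is read from them, since the choice of libraries used this contrast. Of 31 ATF4 targets, 0 were highest and 9 lowest, with a median of -0.28, CEBPB (-1.08) among the lowest. Of 28 p53 targets, 0 were highest and 8 lowest, with a median of -0.15. ZMAT3, an RNA-binding p53 target, had 1139 in the second library against 2831 and 2334 in the others of KO#1, 1405 in the second library against 2601 in the other of KO#2 and 825 in the second library against 1422 and 1549 in the others of sgControl, a difference of -0.98 (SE 0.11). BBC3, the gene of the death protein PUMA, was at -0.87. The counts of genes highest and lowest were 2 and 6 of 25 for YAP and TEAD targets, 4 and 6 of 26 for interferon response genes, and 0 and 4 of 21 for NF-kB targets. They were 2 and 5 of 29 for immediate early and heat shock genes, 3 and 7 of 35 for matrix and TGF-beta response genes and 3 and 8 of 29 for epithelial and renal genes. They were 0 and 2 of 26 for endoplasmic reticulum chaperones, 4 and 5 of 48 for nuclear respiratory chain genes and 0 and 2 of 13 for mitochondrially encoded messages. Of 17 markers of other cell types in the table, 16 did not reach the mean of 10, and PDGFRB, a mesenchymal receptor gene, was lowest in the second libraries at -0.57.

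Some genes outside every list were chosen after their values had been seen. HMGB2 (1.92), a chromatin protein, LMNB1 (1.66), a nuclear lamin, the tubulin gene TUBA1B (1.65), the histone variant gene H2AFZ (1.59) and the methyltransferase gene EZH2 (1.09) were highest in the second libraries. TFRC, the transferrin receptor that brings iron into cells, had 3496 in the second library against 1858 and 1317 in the others of KO#1, 4971 in the second library against 870 in the other of KO#2 and 3259 in the second library against 966 and 1027 in the others of sgControl. Its difference was 1.73 (SE 0.30). FTH1, the heavy chain of ferritin, which stores iron, had 5709 in the second library against 14078 and 10801 in the others of KO#1, 5964 in the second library against 9439 in the other of KO#2 and 5324 in the second library against 10071 and 12329 in the others of sgControl, a difference of -0.97 (SE 0.16). The gene for uptake of iron was thus high and that for its storage low in the same libraries. The adhesion genes CDH4 (-1.59) and ITGB4 (-1.12) and EMP1 (-1.42), a membrane protein gene, were lowest.

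GC content of the genes moved with the difference. Across the 12364 genes with known GC content, the Spearman correlation of GC content with the difference was -0.12 in KO#1, -0.34 in KO#2 and -0.23 in sgControl, with no p given. In the lowest of 5 equal bins by GC content 24.7% were highest and 7.24% lowest in the second libraries, and in the highest bin 8.13% were highest and 28.0% lowest. With the median of 20 GC bins taken out, the mitosis median was 2.02, the replication median 1.19, the histone median 2.10 and the cholesterol median 0.79. With these medians out, genes lowest in all groups went from 10 to 5 of 29 for lysosome and autophagy genes. They went from 9 to 4 of 31 for ATF4 targets, from 19 to 14 of 61 for ribosomal protein genes and from 8 to 5 of 29 for epithelial and renal genes. They stayed at 8 of 28 for p53 targets and 14 of 44 for inhibitor and quiescence genes. Over all genes with known GC content 2042 of 12364 were then lowest. The part of GC content in these differences was not tested.

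**Figure D4:**
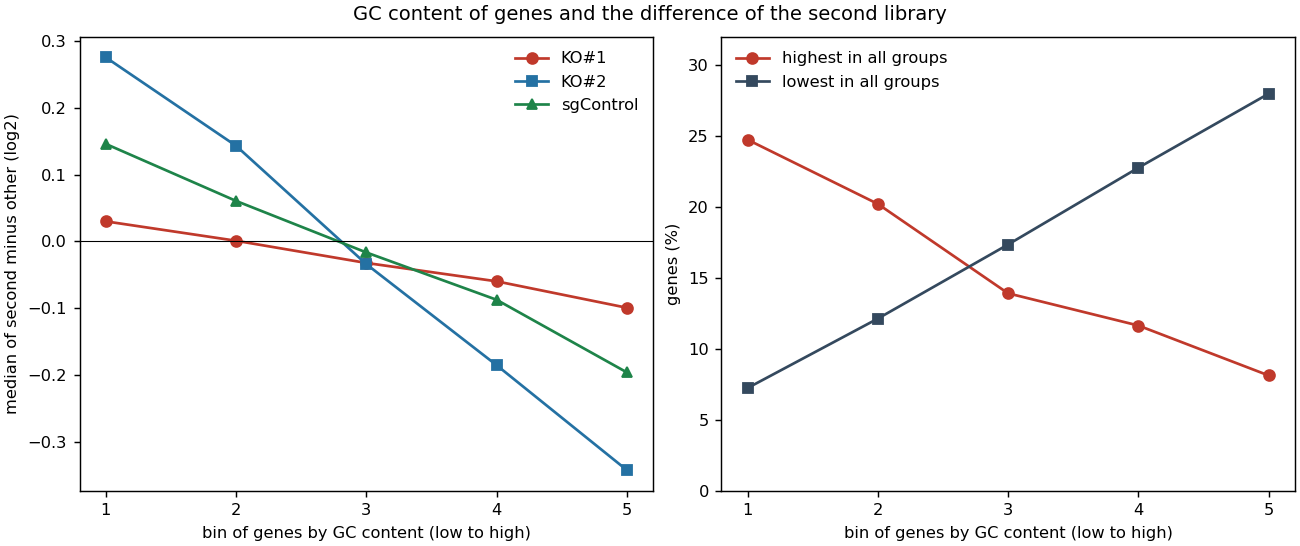
Genes in 5 equal bins by GC content, from low to high, with the median of second minus other libraries (log2) per group on the left and the percent of genes highest or lowest in the second library of all 3 groups on the right. Medians fall with GC content in KO#1, KO#2 and sgControl, and the shares cross near the middle bin.

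Promoter sequence was not used in choosing the libraries, but the signal of proliferation genes was, so motif shares are given as a description. RefSeq promoters, from 250 bases before to 50 after the start, were matched by symbol for 7078 of the 12852 tested genes. Motifs were searched on both strands. They were TTTGAA for the CHR, CCAAT for the CCAAT box, and TTTCCCGC, TTTGGCGC, TTTGCCGC or TTTCGCGC for E2F, and no match of one was removed for overlap with another. TTTGAA was in 74.1% of mitosis promoters (40 of 54), against 6.82% of replication promoters (3 of 44), 8.89% of the tested genes' promoters and 16.0% of all 22114 promoters. An E2F motif was in 52.3% of replication promoters (23 of 44), against 7.41% of mitosis promoters, 5.67% of tested and 3.18% of all. The mitosis and replication genes thus differed in the letters of their promoters although both were higher in the same libraries. The CCAAT box was in 75.9% of mitosis, 82.5% of histone and 85.7% of cholesterol synthesis promoters (12 of 14), against 37.9% of tested and 36.2% of all.

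Among genes highest in all groups by at least 1, 34.6% of 292 promoters held TTTGAA and 61.0% held CCAAT. Among genes lowest by at least 1, 9.28% and 26.8% of 97 did. Of the 10 genes named as higher that had a promoter in the table, 8 held the CHR letters, and 0 of 7 named as lower did. The genes CCNA2 and NCAPH were the others among the 10. All these sets were picked by the contrast used in choosing the libraries, and 179 of the 470 highest genes were in the 4 cell cycle lists. Nothing is therefore read from these shares. A match of letters is a description, and it shows neither a binding site nor a cause.

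**Figure D5:**
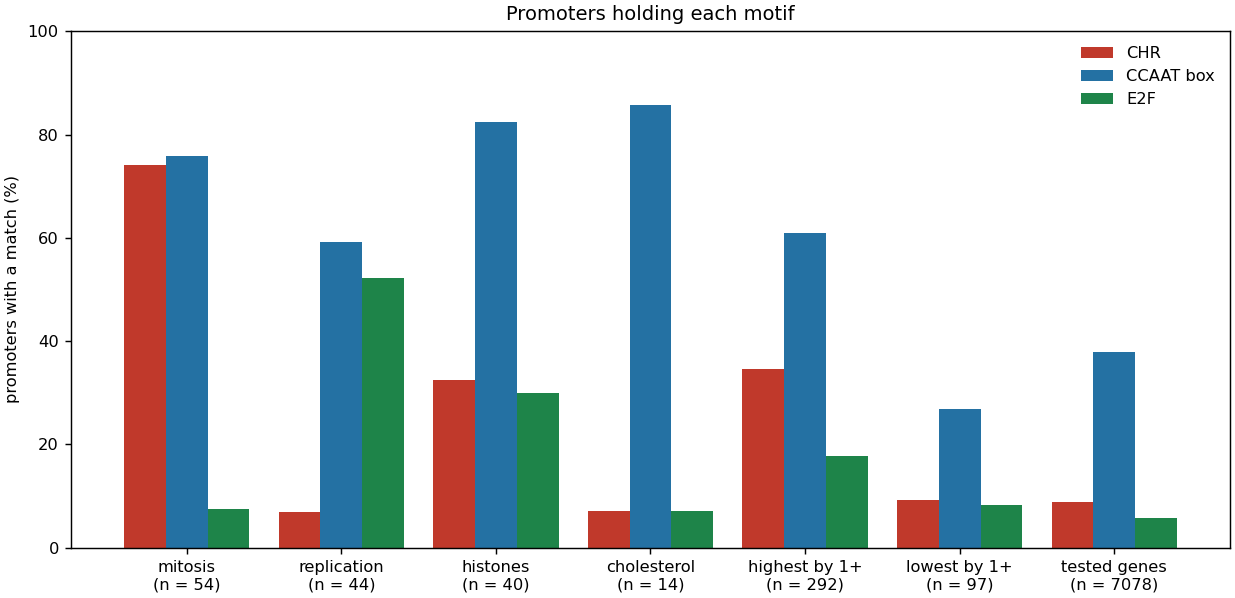
Percent of promoters (bars from 0) that hold a CHR, a CCAAT box or an E2F motif, for 4 gene lists, the genes highest or lowest in the second libraries by at least 1 (log2) and all tested genes, with the number of promoters below. CHR is most frequent in mitosis promoters (74.1%), E2F in replication promoters (52.3%) and CCAAT in cholesterol synthesis promoters (85.7%).

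The guides were then compared with sgControl in a limma fit of the same 8 libraries that held the second library as a term, two-sided and with Benjamini-Hochberg adjustment over all 12852 genes at 0.05. The term was chosen from these same data, so that p-values of this fit, those of proliferation genes above all, may be too small by an unknown amount. KO#1 differed from sgControl in 2902 genes (22.6%; 1444 higher, 11.2%, and 1458 lower, 11.3%). KO#2 differed in 2070 (16.1%; 986 higher, 7.67%, and 1084 lower, 8.43%). With no such term 1583 (12.3%) and 1038 (8.08%) were called, all of them among those called with it. Both contrasts share the sgControl libraries, and the values of each are given side by side. Of the 470 genes highest in the second libraries by at least 1, 16.4% were called for KO#1 (31 higher, 46 lower) and 12.6% for KO#2 (18 higher, 41 lower), both under the share of all genes. Of the 210 lowest, 32.9% were called for KO#1 (27 higher, 42 lower) and 23.3% for KO#2 (24 higher, 25 lower), both above it. Both sets were picked by the contrast that the term stands for, so nothing is read from these shares.

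ELOVL5 differed by -1.11 in KO#1 (SE 0.17, limma with Benjamini-Hochberg adjusted p = 0.000732) and by -0.91 in KO#2 (SE 0.19, adjusted p = 0.00746). Over the alternatives tried the limma adjusted p of ELOVL5 ran from 0.000388 to 0.204 for KO#1 and from 0.00298 to 0.162 for KO#2. With no term for the second library it was 0.0317 and 0.162, with differences of -1.11 and -0.80. It was 0.1001 for KO#2 without KO#2 replicate 3 and 0.204 and 0.118 with KO#2 replicate 1 included.

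The mitosis genes are those on which the second libraries were chosen, so their guide contrasts in the fit with the second-library term are given as a description, with no p. Between the second libraries the median of KO#1 minus sgControl over the mitosis list was 0.03, and between the other libraries -0.58. For KO#2 minus sgControl it was -0.19 and -0.74. With the term, the median was -0.36 for KO#1 and -0.57 for KO#2. With no term for the second library 0 of 77 were called in either contrast by limma, and 0 had an unadjusted p under 0.05.

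MKI67, the marker of the choice, differed by -0.76 in KO#1 (SE 0.24) and by -1.83 in KO#2 (SE 0.27) with the term. With no term its limma adjusted p was 0.632 for KO#1 and 0.414 for KO#2, so it was called in neither. Values of MKI67 in fits with the term are a description, so no p is given for them. CENPA, the centromeric histone, had 245 in the second KO#1 library, against 20.1 and 38.1 in the others, and 197 in the second KO#2 library, against 17.4 in the other. It had 346 in the second sgControl library, against 109 and 117 in the others. CENPA differed by -1.49 (SE 0.36) in KO#1 and -1.89 (SE 0.41) in KO#2. ASPM was at -0.99 in KO#1 and -1.39 in KO#2, FOXM1, the mitotic transcription factor gene, at -0.86 in KO#1, CKAP2L, of a spindle protein, at -0.87 in KO#1 and KIF20A, a kinesin of cytokinesis, at -1.70 in KO#2. For each of these 5 genes in the contrasts given, the limma adjusted p was 0.393 or more with no term for the second library.

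Replication genes are proliferation genes too, so their calls with the term are also a description. Of 67, 6 were called higher (8.96%) and 5 lower (7.46%) in KO#1, against 11.2% and 11.3% of all tested genes. In KO#2, 3 were called higher (4.48%) and 5 lower (7.46%), against 7.67% and 8.43% of all tested genes. These shares rest on few genes and lay near or under those of all genes, and nothing is read from them. With no term for the second library limma called 1 higher and 0 lower in KO#1, with 4 and 0 at an unadjusted p under 0.05, and 0 and 0 in KO#2, with 2 and 1 at an unadjusted p under 0.05. E2F7, a repressor of the E2F family that p53 can induce, had 1054 in the second KO#1 library, against 1309 and 714 in the others, and 764 in the second KO#2 library, against 778 in the other. It had 642 in the second sgControl library, against 265 and 189 in the others. It differed by 1.64 (SE 0.32) in KO#1 and 1.18 (SE 0.36) in KO#2 with the term. With no term the differences were 1.64 and 1.27, with Benjamini-Hochberg adjusted p = 0.0278 and 0.122 by limma, so it rose in KO#1 and was not called in KO#2. Over the alternatives the limma adjusted p of E2F7 for KO#1 reached 0.0968, so its call there did not hold in every one. For E2F7 the second library was the highest in sgControl and lay between or below the others in KO#1 and KO#2, and that difference was not tested. TIPIN, of the replication fork, was at 1.28 in KO#1 and 1.08 in KO#2, GINS1 at 0.89 and 0.86, and the sliding clamp gene PCNA at 1.06 in KO#1. E2F8 was at -1.27 in KO#1 and -1.90 in KO#2, and the histone chaperone gene ASF1B at -0.98 and -1.08. The histone assembly gene CHAF1A (-0.74) and TK1 (-0.73) were on the lower side in KO#1, and E2F2 (-1.34) and the DNA methyltransferase gene DNMT1 (-1.03) in KO#2.

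Of the 44 inhibitor and quiescence genes, 10 were called higher (22.7%) and 6 lower (13.6%) in KO#1 by limma, against 11.2% and 11.3% of all tested genes. In KO#2, 5 were called higher (11.4%) and 5 lower (11.4%), against 7.67% and 8.43%. With no term for the second library 4 were higher and 5 lower in KO#1, and 2 higher and 1 lower in KO#2. Over all 12852 tested genes these counts were 769 and 814 in KO#1 and 499 and 539 in KO#2. SESN2, a stress sensor upstream of mTORC1, had 678 in the second KO#1 library, against 905 and 1170 in the others, and 985 in the second KO#2 library, against 1444 in the other. It had 358 in the second sgControl library, against 531 and 458 in the others. SESN2 rose by 1.01 (SE 0.16) and 1.52 (SE 0.18), with limma adjusted p = 0.00107 and 0.000279, over alternatives from 0.000877 to 0.170 and from 0.000228 to 0.0189. The second library was the lowest of each group for SESN2, and each knockout library was above each sgControl library. KLF11, a repressor induced by TGF-beta, was called lower at -1.33 and -1.16, CDKN2D at -1.37 and -1.22, GADD45B at -1.08 and -0.79, and HES1, a Notch target, was higher by 1.33 and 1.58. In KO#1 SESN1 (1.25) and the antiproliferative gene BTG2 (1.04) were higher and FOXO1 (-1.37) lower. In KO#2 the p130 gene RBL2 (0.95) and GADD45A (0.92) were higher and BCL6 (-1.49) lower. Without the second-library term limma did not call CDKN2D (adjusted p = 0.148), GADD45B (0.0979), HES1 (0.0516), GADD45A (0.0698) or BCL6 (0.0508) in KO#2. Nor did it call BTG2 (0.0735) in KO#1, and the other calls named for this list held in that fit. GADD45B in KO#2 had a limma adjusted p of 0.0494 with the term. Its difference there ran from -1.24 to -0.26 over fits that each dropped a library. Of 28 p53 targets 16 were called higher (57.1%) and 0 lower in KO#1, against 11.2% and 11.3% of all tested genes. In KO#2, 10 were called higher (35.7%) and 0 lower, against 7.67% and 8.43%. With no term for the second library 8 p53 targets were higher in KO#1 and 5 in KO#2, against 769 and 499 of all 12852 tested genes. At an unadjusted limma p under 0.05, 1 p53 target was lower in each contrast. The median of these targets between second libraries was 0.43 for KO#1 minus sgControl and 0.67 for KO#2 minus sgControl, and between the others 0.87 and 0.54, so both sets of libraries gave the same sign.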

How the data were processed

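The authors deposited 1 table with a signal per gene and library. Per the file's own name and values, the authors made this signal from total read counts by quantile normalization. The labels' protocols name RNeasy columns for total RNA, the NEBNext Ultra Directional kit for libraries and paired ends on a NextSeq500. No aligner, counter or use of strand is given in the sources used here. A mouse build, mm10, stands in the submitters' processing notes, while the gene names are those of human genes. Genes with near-identical copies or overlaps are therefore uncertain.

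Values were taken to log2(signal + 1), with a mean of at least 10 over 8 libraries. The second-library difference is a least-squares contrast with group as a factor (Python 3.11.15, numpy 2.4.6, pandas 2.3.3, matplotlib 3.10.9) and has no test. Guides were tested with limma 3.58.1 in R 4.3.3, with a variance trend and the second library as a term. Scripts were tested on simulated data. Low read numbers were read back from the order of ties. The libraries, members and 25 gene lists were chosen with earlier results of these data known. Genes were named by a rule: MKI67, ELOVL5, the 15 higher and 15 lower with the largest smallest gap above the median level, up to 4 members per list by size, and up to 4 called members each way for the guides. Other list members are named as examples. Alternatives were other pseudocounts and filters, each library left out, KO#2 replicate 1 included, no trend, no second-library term and, added after seeing the data, GC bins removed.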

Additional observations from a re-analysis of the deposited data

Results flagged for a closer look

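The genes named by the rule for the second-library difference were searched for opposite moves between groups. In 8 of them the second library lay above every other library of its group in at least 1 group and below them in another. The difference between groups was not tested. In each of these 8, KO#2, which rests on 1 library each way, stood against sgControl. The rest of the list members were not searched. CCNE1, given above, met the same condition, with KO#1 against sgControl. The values are second minus other library (log2).

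CALR, a chaperone of the endoplasmic reticulum, was at 1.18 in KO#1, -0.28 in KO#2 and 1.79 in sgControl. HYOU1, of the same compartment, was at -0.28 in KO#1, -2.12 in KO#2 and 0.44 in sgControl. F3, the tissue factor gene, was at 0.48 in KO#1, -0.0841 in KO#2 and 1.55 in sgControl. DDIT4, an inhibitor of mTORC1, was at -0.87 in KO#1, 0.23 in KO#2 and -1.38 in sgControl. TP53INP1, a p53 target, was at -0.94 in KO#1, 0.0497 in KO#2 and -1.13 in sgControl. The ribosomal protein gene RPL30 was at -0.62 in KO#1, 0.0725 in KO#2 and -0.61 in sgControl. Of the respiratory chain, MT-ND4L was at -0.51 in KO#1, 0.12 in KO#2 and -0.59 in sgControl, and NDUFB9 was at -0.63 in KO#1, 0.36 in KO#2 and -0.65 in sgControl.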

How the results depend on the processing

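The count of genes lowest in all 3 groups by at least 1, 210 as reported, was 116 with a pseudocount of 10, 329 with no filter on the mean, 91 with a mean of at least 100 and 403 with KO#2 replicate 1 included. Genes called by limma were 1583 for KO#1 and 1038 for KO#2 with no second-library term, and 329 and 285 with KO#2 replicate 1 included. Leaving out each library in turn gave 2214 to 3179 genes highest, 2520 to 3517 lowest, 472 to 583 highest by 1 and 218 to 395 lowest by 1. These counts rise by construction, since fewer libraries have to be passed. The highest of them came without KO#1 replicate 2 (3179, 3517 and 395), and 371 genes were lowest by 1 without sgControl replicate 2. The median was 1.85 to 2.22 for mitosis and 1.06 to 1.32 for replication. Called genes were 1689 to 3135 for KO#1 and 1169 to 2342 for KO#2, with 1689 and 1325 without sgControl replicate 1, 1169 without KO#2 replicate 2 and 1316 without KO#2 replicate 3. A group left with 1 library is assumed to vary like the others.

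Of 1705 values of 123 named genes and list members under alternatives, 46 moved by more than the residual SD and 3 turned sign, 0 of them in a gene highest or lowest in all 3 groups. HYOU1, at -0.52 as reported, was at 0.0790 without KO#2 replicate 2 or 3, and SEL1L, at -0.53, was at 0.10 with KO#2 replicate 1 included. Without either of those 2 libraries KO#2 has no part in the difference, so that of HYOU1 rested on KO#1 (-0.28) and sgControl (0.44). The cause of the unlike HYOU1 values between groups and of the SEL1L change was not tested. Of 42 named guide calls, 30 were lost with no second-library term and 39 with KO#2 replicate 1 included. No paired analysis was possible because the labels give no replicate numbers. Depth is unknown, KO#2 has 1 second and 1 other library, and low signals rest on few reads.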
